A study of Rattus norvegicus with 6 samples.

Results

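The genes described here are 4 growth factor receptors and 1 growth factor: Pdgfra (ENSRNOG00000002244), Pdgfrb (ENSRNOG00000018461), Egfr (ENSRNOG00000004332), Igf1r (ENSRNOG00000014187) and Igf1 (ENSRNOG00000004517). They were taken from the table by a fixed set of identifiers, which was drawn up with earlier results of these data known. All 5 were present among the 19133 genes of the deposited table, and all 5 were among the 12408 genes that passed the filter on low values described below. The table lists rat Ensembl identifiers without names, and the reference table used here pairs 0 of them with a symbol, so the symbols are those given with the identifiers when the genes were chosen. For the same reason the tenocyte label and the presence of other cell types could not be checked against marker genes.

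The libraries came from rat tenocytes, the fibroblast-like resident cells of tendon, which were released from Achilles tendons of Sprague–Dawley rats with collagenase and grown in medium with serum. The control group (n = 3 libraries) received fresh complete medium only. The IL-1β group (n = 3 libraries) received complete medium to which 50 ng/mL of interleukin-1β, a cytokine that triggers inflammation, was added for 24 h. The study used these groups to ask how an inflammatory stimulus changes tenocyte gene expression. The methods describe the data of the study as coming from independent experiments, without saying whether the 3 libraries of a group came from separate animals. The p-values below rest on the spread between these libraries, which limma moderates with that of the other tested genes. The libraries are bulk samples, in which a change in the RNA per cell and a change in the number of cells that express a gene cannot be told apart.

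Receptor tyrosine kinases are cell-surface proteins that signal as dimers. When a growth factor binds, the partners phosphorylate one another and pass the signal on through the Ras–ERK and PI3K–Akt cascades. Pdgfra and Pdgfrb encode the alpha and beta receptors for the platelet-derived growth factors, which drive division and migration of mesenchymal cells and are widely used as markers of fibroblasts and pericytes. Egfr encodes the receptor for epidermal growth factor and related ligands such as TGF-alpha and amphiregulin. Igf1 encodes insulin-like growth factor 1, a secreted anabolic factor that stimulates collagen synthesis in tendon, and Igf1r encodes its receptor.

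The authors deposited FPKM values (fragments per kilobase of gene length, scaled to a total of fragments per library), so that levels of different genes can be set side by side per length. Since 1 read is worth a fixed step in this unit, that total, called the depth here, could be worked out from the low values. It lay between 36619503 and 43227283 reads, nearly all of them recovered in the listed genes. Libraries of the same group correlated in log2 level at Pearson's r of at least 0.979 and libraries from different groups at no more than 0.931, across genes that are not independent replicates. The second principal component, with 8.46% of the variance, set both libraries numbered 1 (20.7 and 22.0) apart from the other 4 (−12.3 to −7.23), so the changes of the 5 genes are also given from a fit of replicates 2 and 3 alone.

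The IL-1β group was set against the control group with the two-sided moderated test of limma, on log2(FPKM + 0.1) of values scaled by median-of-ratios size factors. Genes entered the test when 3 or more of the 6 libraries reached 0.5 FPKM. A gene was called differentially expressed at a Benjamini-Hochberg adjusted p under 0.05, taken over all tested genes, together with an absolute log2 fold change over 1, the thresholds of the study. Of the 5 genes, 1 was called, namely Pdgfra, and it was upregulated. Among all tested genes, 8.69% were called and 5.37% were called and higher with IL-1β. By the adjusted p alone, 4 of the 5 genes passed, against 38.4% of all tested genes. The deposited FPKM values of the groups did not overlap for 4 of the 5 genes, against 52.0% of all tested genes. With 5 genes, these counts are a description of the genes and not a result about the set.

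In the control group, the transcript of Pdgfrb was by far the most abundant of the 5, and it stayed the most abundant with IL-1β. The transcript of Pdgfra, at the level of Igf1 in control cells, was 5.02-fold higher with IL-1β. There it ranked directly below Pdgfrb, whose mean was 2.48 times as high. Egfr, the lowest of the 5 by FPKM in both groups, was 1.61-fold higher. Pdgfrb and Igf1r were slightly lower, and Igf1 was within the spread between libraries. The plot of levels by library shows these positions.

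**Figure D1:**
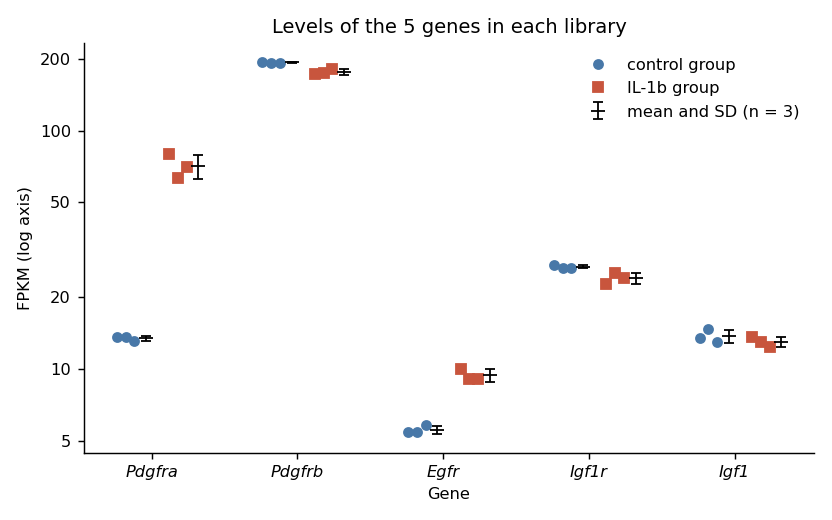
Deposited FPKM (log axis) of the 5 genes in each of the 3 control (circles) and 3 IL-1β libraries (squares), with mean and SD (n = 3) beside them. Pdgfra went from 13.1–13.7 FPKM to 63.1–79.4 FPKM, while for Igf1 the points of the groups overlap.

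Pdgfra, the alpha receptor for platelet-derived growth factors, read 13.7, 13.7 and 13.1 FPKM in control libraries 1, 2 and 3. The IL-1β libraries 1, 2 and 3 read 79.4, 63.1 and 70.4 FPKM. All 3 IL-1β libraries lay far above all 3 control libraries, and IL-1β library 1 was the highest. The means were 13.5 ± 0.346 FPKM without and 71.0 ± 8.17 FPKM with IL-1β (SD, n = 3 each), and the log2 fold change was 2.33 (standard error 0.089, adjusted p = 2.18e-06 from limma). As a fold this is 5.02, with a 95% interval of 4.34 to 5.80. Without the libraries numbered 1, the log2 fold change was 2.25.

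These values rest on 3262 to 3561 recovered reads per control library and 16893 to 19239 reads per IL-1β library. The 3 control libraries varied by 2.57% (coefficient of variation), against 1.71% that counting of reads alone would give, and the 3 IL-1β libraries by 11.5% against 0.747%. The spread in the IL-1β group was therefore mostly not counting error. The 95% interval above comes from limma's moderated variance, which joins the spread of Pdgfra within both groups with that of other tested genes. In level, Pdgfra exceeded 63.9% of the tested genes without and 91.3% with IL-1β. In size of change, 211 tested genes had a larger log2 rise, 208 of them among the 666 called and higher.

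Egfr, the epidermal growth factor receptor, read 5.44, 5.44 and 5.82 FPKM in control libraries 1, 2 and 3. It read 10.1, 9.08 and 9.10 FPKM in IL-1β libraries 1, 2 and 3. The groups did not overlap, and as for Pdgfra the highest value was that of IL-1β library 1. The means were 5.57 ± 0.217 and 9.41 ± 0.555 FPKM (SD, n = 3 each), with a log2 fold change of 0.69 (standard error 0.072, adjusted p = 0.000268 from limma). The fold of 1.61 had a 95% interval of 1.43 to 1.81, which lies wholly under 2-fold, so Egfr passed the adjusted p but not the fold threshold. Without the libraries numbered 1, the log2 fold change was 0.62. Reads numbered 828 to 1012 per control library and 1394 to 1632 per IL-1β library. In level, Egfr exceeded 39.99% of the tested genes without and 52.3% with IL-1β, and 15.8% of all tested genes had a larger absolute log2 change.

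Letters from the start of these genes are shown because Pdgfra and Egfr are the 2 members whose transcripts were higher with IL-1β. RefSeq promoter windows of the GRCr8 assembly (250 bases before to 50 after the start of a gene) were given for 4 of the 5 genes, all but Pdgfrb, and were matched by symbol. The bases printed lie before the start and outside the annotated gene. For Pdgfra, whose last 88 bases before the start lie inside the annotated gene, 30 of these around 1 motif match are added. They run 5′ to 3′ on the strand of the gene, and capitals mark motif matches.
Pdgfra, chr14:33408605-33408766, minus strand: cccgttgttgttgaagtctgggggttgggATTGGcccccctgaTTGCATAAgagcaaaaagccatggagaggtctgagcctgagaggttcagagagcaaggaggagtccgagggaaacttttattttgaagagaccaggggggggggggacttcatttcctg
Pdgfra, chr14:33408533-33408562, minus strand: gactataacatTGAATCAattacaaaatgc
Egfr, chr14:95378376-95378625, plus strand: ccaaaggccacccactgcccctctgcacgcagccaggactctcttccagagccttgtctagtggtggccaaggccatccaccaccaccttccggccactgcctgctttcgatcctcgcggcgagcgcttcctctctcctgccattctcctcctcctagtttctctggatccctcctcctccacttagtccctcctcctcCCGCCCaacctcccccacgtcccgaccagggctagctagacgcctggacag

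Each window was searched on both strands for 5 motifs, chosen after the values were seen. The pattern searched for AP-1 (TGANTCA) leaves the middle base open. This loose pattern matched once in Pdgfra, as TGAATCA, 35 bases before the start, and in 7.33% of the 33469 rat promoter windows. With A at the open base, TGAATCA is not the usual AP-1 consensus. C/EBP (TTGCNNAA) matched Pdgfra 207 bases before the start, 75 bases before it in reverse among the letters not printed, and 10.6% of all windows. The CCAAT box (CCAAT) matched Pdgfra in reverse 221 bases before the start and 37.5% of all windows. The GC box (GGGCGG) matched Egfr in reverse 51 bases before the start, Igf1r 184 bases before it, and 33.1% of all windows. The match in Igf1r lies inside the annotated gene, which begins 210 bases before the start used for its window. The NF-κB consensus matched none of the 4 windows and 4.18% of all windows. None of the 5 motifs matched the Igf1 window, which lies wholly inside its annotated gene, which begins 2924 bases before the start used. No match of 1 motif overlapped that of another in these windows. The GC content was 48.0% for Pdgfra, 64.3% for Egfr, 78.0% for Igf1r and 48.3% for Igf1. A match describes the letters only, and the absence of one concerns this window of 300 bases and not the factor.

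Pdgfrb, the beta receptor for platelet-derived growth factors, read 194.0, 192.9 and 192.5 FPKM in control libraries 1, 2 and 3. It read 172.1, 174.5 and 181.4 FPKM in IL-1β libraries 1, 2 and 3. The IL-1β values were all below the control values, and the gap between the nearest libraries of the groups exceeded the whole range within the control group. The means were 193.1 ± 0.755 and 176.0 ± 4.87 FPKM (SD, n = 3 each), with a log2 fold change of −0.19 (standard error 0.037, adjusted p = 0.00563 from limma). This is a change of −12.5%, with a 95% interval of −17.6% to −7.01%, and 52.3% of all tested genes had a larger absolute log2 change. The gene had 36445 to 45898 reads per library, so that counting error was no more than 0.507% in either group. The observed coefficient of variation was 0.391% for the control libraries, below the 0.483% of counting alone. For the IL-1β libraries it was 2.76%. With the FPKM values as deposited, which shift the median log2 fold change over all genes from 0.00066 to 0.058, the log2 fold change of Pdgfrb was −0.13. Without the libraries numbered 1 it was −0.18.

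**Figure D2:**
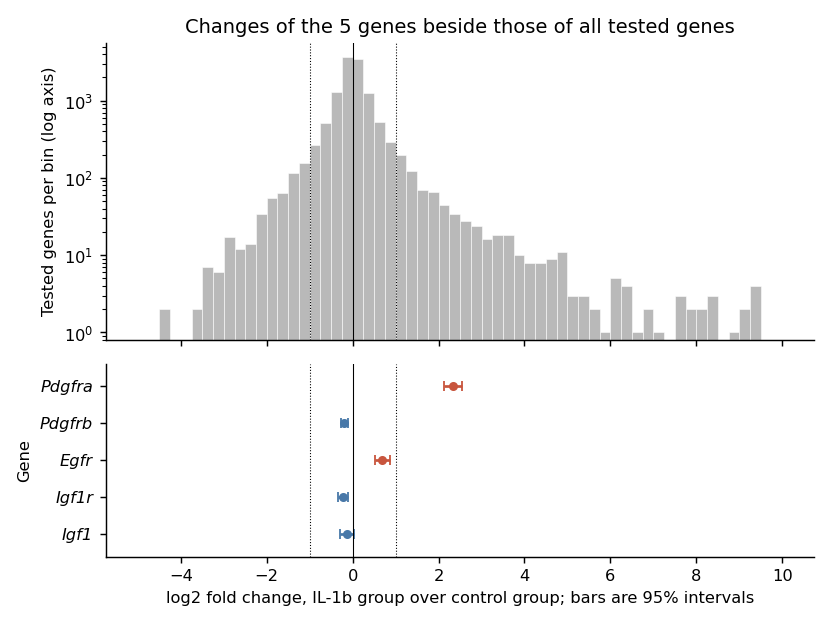
Upper panel, number of tested genes (log axis) per bin of log2 fold change, IL-1β over control. Lower panel, the 5 genes with 95% intervals, where dotted lines mark the fold threshold of 1 on the log2 scale. Pdgfra (2.33) lies past it, Egfr (0.69) between 0 and the threshold, and Pdgfrb (−0.19), Igf1r (−0.22) and Igf1 (−0.14) just below 0.

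The relation between the 2 platelet-derived growth factor receptors was also followed within each library, where the scaling between libraries has no part. The ratio of Pdgfra to Pdgfrb in FPKM was 0.0704, 0.0709 and 0.0679 in control libraries 1, 2 and 3. It was 0.462, 0.362 and 0.388 in IL-1β libraries 1, 2 and 3. The lowest IL-1β ratio was above the highest control ratio, and the mean log2 ratio differed by 2.52 (5.73-fold). In an exact two-sided permutation test over all 20 assignments of the 6 libraries, p was 0.10, the smallest value that 3 libraries against 3 can give (0.15 after Benjamini-Hochberg adjustment over the 3 ratios tested), so this design could not reach 0.05. Together, Pdgfra and Pdgfrb summed to 206.6 ± 1.02 FPKM without and 247.0 ± 8.09 FPKM with IL-1β (SD, n = 3 each).

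**Figure D3:**
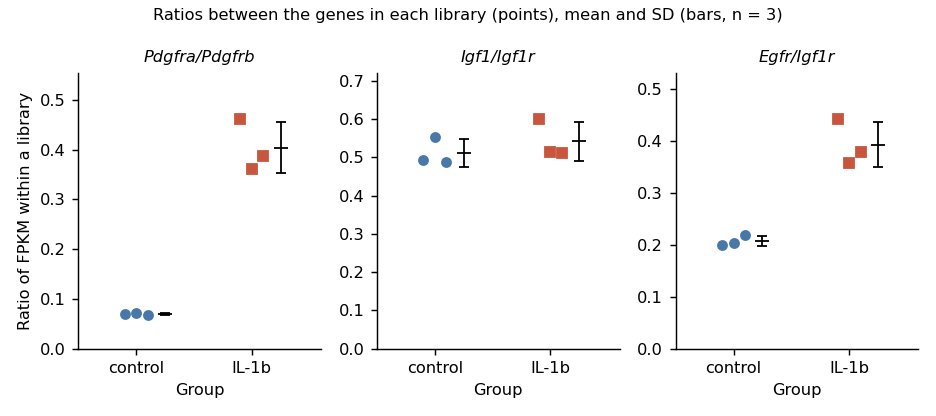
Ratio of the FPKM values of 2 genes within each library (points, linear axes from 0), with mean and SD (n = 3), for Pdgfra/Pdgfrb, Igf1/Igf1r and Egfr/Igf1r. The groups are apart in the left and right panels and overlap in the middle panel (0.487–0.553 in control, 0.513–0.601 with IL-1β).

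Igf1r, the receptor for insulin-like growth factor 1, read 27.4, 26.7 and 26.7 FPKM in control libraries 1, 2 and 3. It read 22.7, 25.4 and 24.1 FPKM in IL-1β libraries 1, 2 and 3. The groups did not overlap, and the lowest value was that of IL-1β library 1. The means were 26.9 ± 0.409 and 24.1 ± 1.32 FPKM (SD, n = 3 each), with a log2 fold change of −0.22 (standard error 0.050, adjusted p = 0.0122 from limma). This is a change of −14.1%, with a 95% interval of −20.9% to −6.74%, and 47.6% of all tested genes had a larger absolute log2 change. Igf1r passed the adjusted p when any single library was left out, but not without both libraries numbered 1, where the log2 fold change was −0.17 and the adjusted p from limma was 0.0597. With the FPKM values as deposited, the log2 fold change was −0.16. Reads numbered 3468 to 4578 per library.

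Igf1, the ligand of this receptor, read 13.5, 14.8 and 13.0 FPKM in control libraries 1, 2 and 3. It read 13.7, 13.1 and 12.3 FPKM in IL-1β libraries 1, 2 and 3. The groups overlapped, with IL-1β library 1 above control libraries 1 and 3. The means were 13.8 ± 0.907 and 13.0 ± 0.670 FPKM (SD, n = 3 each), and the log2 fold change of −0.14 (standard error 0.072, adjusted p = 0.186 from limma) did not pass. Its 95% interval, −19.1% to 2.44% as a change of the level, holds the changes found for Pdgfrb and Igf1r, so Igf1 is not shown to differ from them. Reads numbered 874 to 1086 per library, and counting alone would give a coefficient of variation of 3.12% for the control and 3.21% for the IL-1β libraries, against 6.59% and 5.14% observed.

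The ratio of Igf1 to Igf1r, ligand over receptor, was 0.494, 0.553 and 0.487 in control libraries 1, 2 and 3. Its values in IL-1β libraries 1, 2 and 3 were 0.601, 0.514 and 0.513. The groups overlapped, and the mean log2 ratio differed by 0.084 (p = 0.50 both before and after Benjamini-Hochberg adjustment over 3 ratios, exact two-sided permutation test), which became 0.0082 without IL-1β library 1. The ratio of Egfr to Igf1r, in contrast, was 0.199, 0.204 and 0.218 in the control libraries, against 0.442, 0.358 and 0.378 with IL-1β. Those groups did not overlap, and the mean log2 ratio differed by 0.91 (1.88-fold; p = 0.10, the smallest possible, and 0.15 after adjustment in the same exact permutation test).

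By level in FPKM, the order in the control group was Pdgfrb, Igf1r, Igf1, Pdgfra and Egfr. Igf1 and Pdgfra overlapped there, with Igf1 above Pdgfra in 1 of 3 libraries and the means differing by a factor of 1.02, so their order is not settled. The other neighbours did not overlap. The mean of Pdgfrb was 7.18 times that of Igf1r, that of Igf1r 1.96 times that of Igf1, and that of Pdgfra 2.42 times that of Egfr. In the IL-1β group the order was Pdgfrb, Pdgfra, Igf1r, Igf1 and Egfr, and no neighbours overlapped. There the mean of Pdgfrb was 2.48 times that of Pdgfra, that of Pdgfra 2.95 times that of Igf1r, that of Igf1r 1.85 times that of Igf1, and that of Igf1 1.38 times that of Egfr. Pdgfra moved from the fourth place to the second, and the order of the other 4 was the same in both groups. The order between genes rests on the gene lengths behind the FPKM values, 1925 bases for Igf1 and 4158 for Egfr. In reads, not divided by length, Igf1 (874 to 1086) was below Egfr (1394 to 1632) in the IL-1β libraries.

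As a share of the summed FPKM of the 4 receptors, Pdgfrb made up 80.8% ± 0.1004 without and 62.8% ± 1.96 with IL-1β (SD, n = 3 each). Pdgfra made up 5.63% ± 0.128 and 25.3% ± 2.42. Igf1r made up 11.3% ± 0.116 and 8.59% ± 0.678, and Egfr 2.33% ± 0.0996 and 3.36% ± 0.172. None of the 4 shares overlapped between the groups. Since the shares of a library sum to a whole, a higher level of 1 receptor lowers the shares of the others. The summed FPKM of the 4 was 239.0 ± 1.23 without and 280.5 ± 7.23 with IL-1β.

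**Figure D4:**
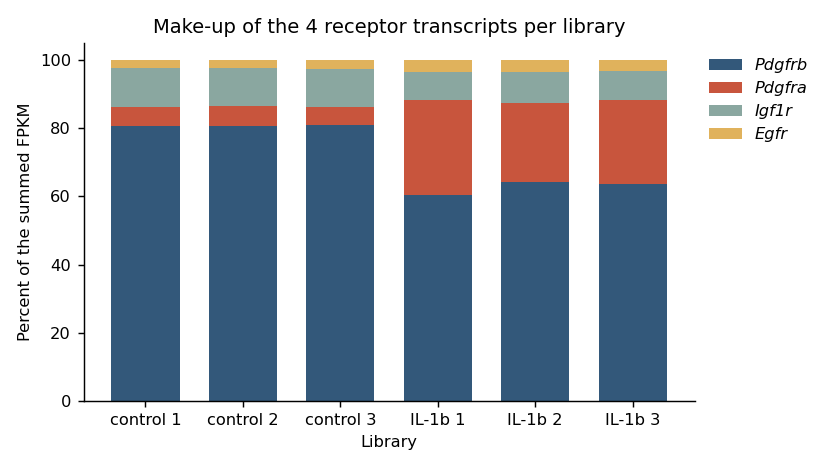
Share of each receptor in the summed FPKM of Pdgfrb, Pdgfra, Igf1r and Egfr, 1 stacked bar per library. Pdgfra takes 5.49% to 5.73% of the sum in the control libraries and 23.2% to 27.9% in the IL-1β libraries.

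Under the 16 alternative settings, 1 of the 5 genes was called each time, and no gene changed direction. The log2 fold change of Pdgfra lay between 2.23 and 2.41, that of Egfr between 0.61 and 0.75, that of Pdgfrb between −0.21 and −0.13, that of Igf1r between −0.25 and −0.16, and that of Igf1 between −0.19 and −0.078. The ranges of Pdgfrb, Igf1r and Igf1 overlapped one another, while that of Pdgfra stood apart from that of Egfr.

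**Figure D5:**
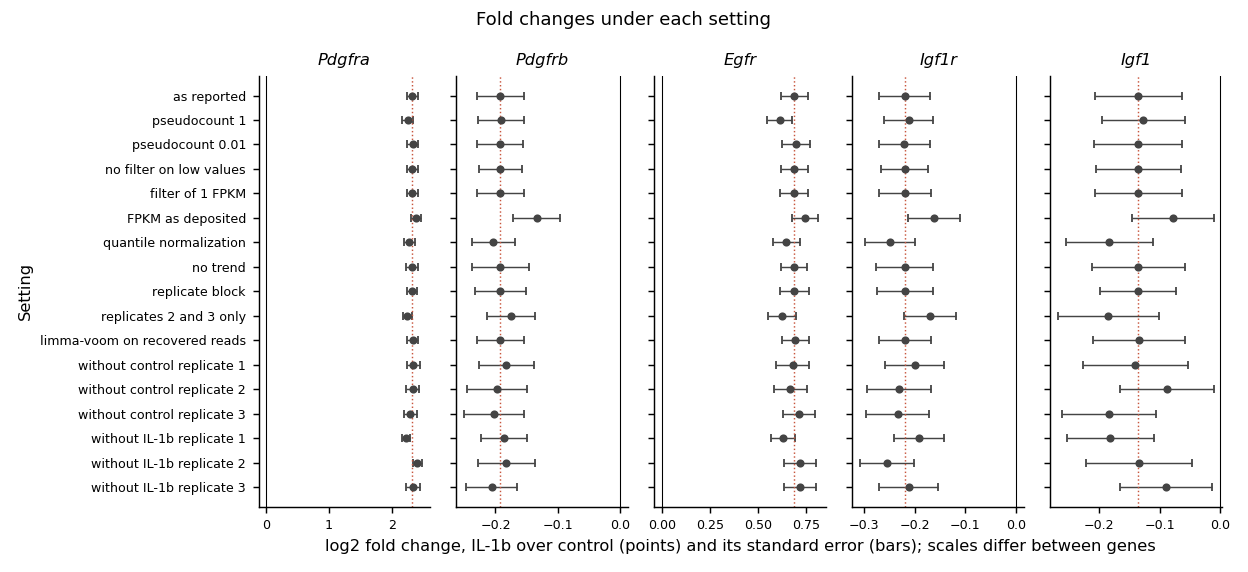
log2 fold change (IL-1β over control) and its standard error for each gene under the reported setting (first row, dotted line) and 16 alternatives, with a scale of its own for each gene. All points keep their side of 0, Pdgfra between 2.23 and 2.41 and Egfr between 0.61 and 0.75.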

How the data were processed

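Polyadenylated RNA of 6 tenocyte libraries was sequenced as paired-end reads. The authors deposited FPKM values per gene, 1 column a library with none pooled, from a pipeline of their own. The submitters' processing notes name HISAT2 and featureCounts, without versions. The genome build, the annotation and the use of strand in counting are not given in the sources used here, so reads of overlapping genes may be shared. Columns were assigned to groups by the sample labels.

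The depth behind each column was found in Python 3.11.15 (pandas 2.3.3, numpy 2.4.6) as the value that makes reads whole, within 0.01 read, with whole gene lengths. The smallest fitting number of reads was taken, which for genes with few reads may be too small. Recovered reads made up 99.7% of each depth, and 3 reads of Pdgfra correspond to 0.0107 to 0.0126 FPKM. Reads carry no molecular identifiers, so counting error covers counting only. Fits used R 4.3.3 and limma 3.58.1 with an intensity trend, and exact permutation tests used scipy 1.17.1. The added 0.1 makes log2 fold changes of low genes too small. The scripts were tested on simulated data. Figures were drawn with matplotlib 3.10.9.

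The study's own test was a model of read counts, and limma stands in for it here because the table holds FPKM. The 5 genes, the gene lists and the tests were chosen with earlier results of these data known. The rule for named genes was the 5 members, genes of lists of related ligands, binding proteins, adaptors and cell type markers, and the 2 genes most like each member. The lists and the likeness rule need symbols and were not run. Alternatives were pseudocounts of 1 and 0.01, no filter, a filter of 1 FPKM, deposited scaling, quantile normalization, no trend, a replicate block, replicates 2 and 3 only, limma-voom on recovered reads, and each library left out.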

Additional observations from a re-analysis of the deposited data

How the results depend on the processing

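All genes past both thresholds numbered 1078, and 697 with a pseudocount of 1, which shrinks the changes of low genes by construction. Under the other settings the number was 933 to 1334, and 1042 to 1109 when each library was left out in turn. Of the 5 genes, Igf1r alone lost a call by the adjusted p, namely with replicates 2 and 3 only. There its log2 fold change was −0.17, and limma gave an adjusted p of 0.0597. With all libraries the fall was larger (−0.22), while the standard error was much the same (0.0504 against 0.0520). Whether the lost call came from fewer libraries or from leaving out those numbered 1 was not tested. With each library left out in turn, the log2 fold change was 2.23 to 2.41 for Pdgfra, −0.21 to −0.18 for Pdgfrb, 0.63 to 0.72 for Egfr, −0.25 to −0.19 for Igf1r and −0.18 to −0.088 for Igf1, with no call changed. The mean log2 ratio differed by 2.42 to 2.59 for Pdgfra to Pdgfrb, 0.82 to 0.97 for Egfr to Igf1r and 0.0082 to 0.14 for Igf1 to Igf1r.

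Libraries are numbered 1 to 3 in both groups, and the sources used here do not say that a number marks a shared animal or culture. Across genes, the residuals of control and IL-1β libraries with the same number correlated at 0.021 to 0.094. Those with different numbers correlated at −0.087 to 0.061, so the ranges overlap. The highest, 0.094, was between the libraries numbered 1, which the second principal component also set apart from the rest. Of the libraries, 4 of 6 correlated best with their own number. Together these are at most a weak hint from the data only. With the replicate block, 1080 genes passed both thresholds, and the adjusted p from limma was 4.33e-05 for Pdgfra, 0.00217 for Egfr, 0.0197 for Pdgfrb, 0.0336 for Igf1r and 0.156 for Igf1, with no call of the 5 changed. Paired by number, the exact permutation p of the ratios was 0.25, 0.25 and 0.75 for Pdgfra to Pdgfrb, Egfr to Igf1r and Igf1 to Igf1r, where 0.25 is the smallest possible. All 5 genes had at least 828 reads in every library. Counting of reads could still account for much of the control spread of some genes. The observed coefficient of variation there was 1.52% for Igf1r, 0.391% for Pdgfrb and 3.90% for Egfr. Counting alone would give 1.53%, 0.483% and 3.34%.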
